A study of Schizosaccharomyces japonicus with 2 samples.

Results

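Both ends of supercontig 1, the longest assembled piece of the Schizosaccharomyces japonicus genome in the deposited files, were examined for small RNA. Members were chosen by position alone: every listed place of 21 to 28 nt whose leftmost base lay among the first 70000 bases of the supercontig (the left end) or at base 4221001 and beyond (the right end, 70364 bases up to the last listed base, 4291364). A member is a distinct combination of start, end and strand, and its reads are the identical reads listed there. Replicate 1 had 14156 members of 223429 in the whole library, 5002 in the left end and 9154 in the right end. Replicate 2 had 43536 of 474395, 16083 in the left end and 27453 in the right end. All came from 1 group of 2 libraries of wild-type cells, strain yFS275, harvested in logarithmic growth. RNA of 10 to 40 nt with a 5′ monophosphate and a 3′ hydroxyl was ligated, amplified and sequenced with its strand kept. No conditions were compared. Since the labels name no separate cultures behind the replicates, differences between them may be technical.

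In fission yeasts, the nuclease Dicer cuts double-stranded RNA into small interfering RNAs, which guide Argonaute to matching transcripts and help to place silent chromatin over repeats. Dicer products are short duplexes whose strands each overhang at the 3′ end. In S. japonicus, retrotransposons are known to cluster near centromeres and telomeres, and they are a major source of small RNA. Whether the ends of supercontig 1 are the ends of a chromosome, and what they encode, was not analysed here: no genome or annotation of this build was at hand, so regions are given by their bases and no sequence is printed.

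Reads are given as RPM, their number per 1000000 reads of 21 to 28 nt outside bases 1 to 37000 of supercontig 3, a repeated one-strand region called the block, which held 71.1% of such reads in replicate 1 and 29.5% in replicate 2. The remaining depth was 889190 and 2457514 reads. Reads amplified by PCR without molecular identifiers are not independent molecules, so the 95% Clopper-Pearson intervals given here cover counting error only. With 2 libraries of 1 group, no test across samples was made, and values are set against the spread between the libraries.

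With the block left out, the ends held more small RNA than their length. They make up 1.20% of the mapped length outside the block, and held 35786 reads in replicate 1, or 4.02% of the reads outside the block (interval 3.98 to 4.07), and 268546 reads in replicate 2, or 10.9% (10.89 to 10.97). Density over the ends was 286.7 RPM per kb against 83.1 in the rest of the series in replicate 1, and 778.5 against 77.1 in replicate 2, which is 3.45 and 10.1 times as high. The interior of the same supercontig had 36.3 and 35.4 RPM per kb. Supercontigs 4 to 30, a part of that rest, were denser than the ends, with 563.5 and 897.2 RPM per kb. The excess at the ends outside the block was present in both libraries, and its size differed between them. As a share of all reads, block included, the ends held 1.16% in replicate 1, which is not above their share of the length, and 7.70% in replicate 2.

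The left end held fewer reads than the right end, in the same proportion in both libraries. The left end had 9770 reads and the right end 26016 in replicate 1, and the left end had 73337 and the right end 195209 in replicate 2. The ratio of left to right was 0.376 in each library, although the right end's share of all reads outside the block was 2.93% in replicate 1 and 7.94% in replicate 2. Among reads with a single best place it was 0.205 and 0.202, and with each member counted once 0.546 and 0.586, so the gap between the ends was wider for reads that can be placed and narrower for members than for reads.

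The left end carried nearly all of its small RNA within 20 kb of the tip. In replicate 1, 98.2% of its reads (97.9 to 98.5) lay within 20 kb of base 1, and in replicate 2, 99.8% (99.7 to 99.8). The median read lay 10.4 kb from the tip in each library, and 90% of reads lay within 14.6 and 14.5 kb. Density over the first 5 kb was 529.9 and 1284.0 RPM per kb, over the next 5 kb 487.0 and 1418.1, and between 10 and 15 kb it was highest, at 1027.0 and 2936.6. From 15 to 20 kb it fell to 114.7 and 316.7. The step was steep: bases 16001 to 17000 still held 199 and 1492 reads, whereas the 53 windows of 1 kb from base 17001 to 70000 held 206 and 336 reads together, or 2.11% and 0.458% of the end. Of those windows, 38 had no read in either library, and the longest stretch without any member ran over 8345 bases, from base 34084 to 42428. Within the first 17 kb a single window broke the run, bases 7001 to 8000, with 18 and 108 reads.

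The right end had a different profile, with most of its reads far from the tip. Only 6.52% of its reads in replicate 1 (6.22 to 6.83) and 3.74% in replicate 2 (3.65 to 3.82) lay within 20 kb of the last listed base. The median read lay 50.01 and 50.4 kb from the tip. The ends differed in the same way for reads with a single best place, whose median lay at 9.32 and 9.33 kb in the left end and at 49.5 and 49.5 kb in the right end. Density had its highest values between 45 and 50 kb, with 1571.1 and 4376.5 RPM per kb, and between 60 and 65 kb, with 1505.4 and 3992.0. The inner edge was abrupt, as in the left end: density was 17.1 and 41.6 RPM per kb from 65 to 70 kb. Between 10 and 15 kb from the tip, 0 reads were listed in replicate 1, which allows up to 3, and 2 in replicate 2. The longest stretch without any member ran over 4944 bases, from base 4283466 to 4288409. The tip itself was not empty: bases 4290001 to 4291000 had 1251.7 and 1798.6 RPM. Bases 1 to 1000 of the left end had 226.0 and 369.5 RPM.

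**Figure D1:**
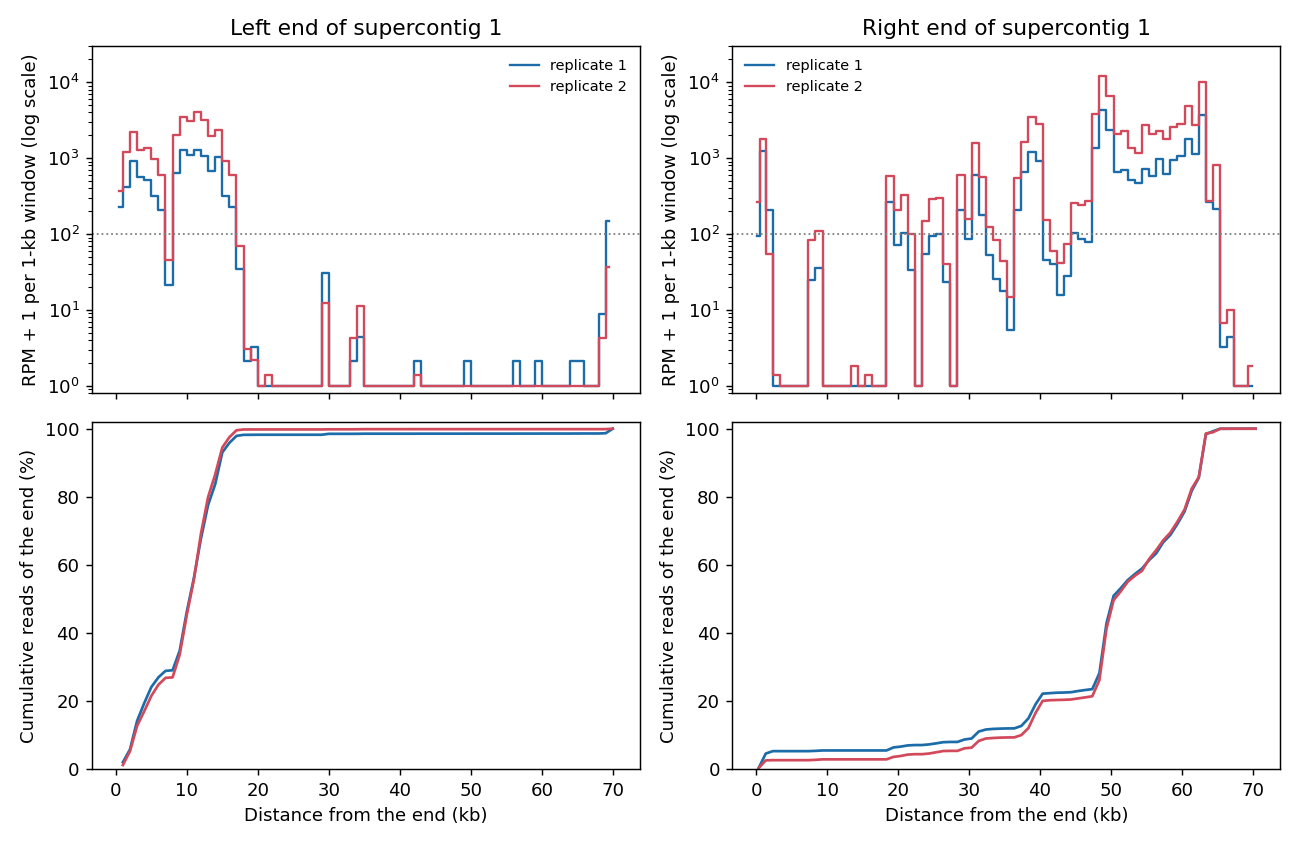
Small RNA along each end by distance from the tip (kb). The upper panels show RPM + 1 in windows of 1 kb on a log scale, with the limit for dense windows dotted, and the lower panels show the cumulative percentage of the end's reads, with 1 line per replicate. The left end gathers its reads within 20 kb of the tip, and the right end gathers most of them beyond 45 kb.

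A window of 1 kb was called dense at 100 RPM or more in each library. Of 11703 windows outside the block, 606 were dense (5.18%). Dense windows numbered 16 of 70 in the left end and 29 of 71 in the right end. The last of these 71, bases 4291001 to 4291364, is shorter than 1 kb but was held to the same limit. It had 94.5 and 262.1 RPM and so was not called dense. With at least 10% of reads on the minor strand in each library as well, a rule met by 3.88% of all windows, there were 16 in the left end and 26 in the right end. Dense windows held 97.7% and 99.4% of the reads of the left end and 95.9% and 96.4% of those of the right end. The number of windows at the limit depended more on the library in the right end. There, 40 windows reached the limit in replicate 2 and 30 in replicate 1, against 16 and 17 in the left end. The change in RPM itself was not larger there: the median dense window had 2.75 times the RPM in replicate 2, against 2.87 times in the left end. Windows at the limit in each library alone were not counted over the series.

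The dense windows of the left end formed a pair of runs, bases 1 to 7000 and 8001 to 17000. The first held 28.9% and 26.8% of the reads of the end and the second 68.8% and 72.6%. Those of the right end formed 8 runs. The main run, bases 4226001 to 4244000 and so 47.4 to 65.4 kb from the tip, held 76.5% of the reads of the end in replicate 1 and 78.5% in replicate 2, at 1242.7 and 3466.1 RPM per kb. The next, bases 4251001 to 4255000, held 10.2% and 10.7%. The outermost, bases 4290001 to 4291000, held 4.28% and 2.26%. The other 5 runs had 1 or 2 windows each and at most 2.68% of the reads. Within 30 kb of the tip no run of the right end was longer than 1 window. The innermost dense window of the right end, bases 4226001 to 4227000, had 187 and 1993 reads, none with a single best place.

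The 3 densest windows of the left end were bases 11001 to 12000, with 1274.2 and 4061.8 RPM in replicates 1 and 2, bases 9001 to 10000, with 1259.6 and 3474.7 RPM, and bases 12001 to 13000, with 1080.8 and 3187.4 RPM. Those of the right end were bases 4242001 to 4243000, with 4297.2 and 12012.1 RPM, bases 4228001 to 4229000, with 3724.7 and 10186.7 RPM, and bases 4241001 to 4242000, with 2348.2 and 6624.6 RPM. The last 3 lay near the outer and inner borders of the main run, and the 12 windows between them each held less in both libraries. No window of the left end reached the level of the lowest of these 3 in the same library.

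Both strands gave reads at both ends, and the plus strand had a larger share in the left end. The plus strand held 55.2% of the reads of the left end in replicate 1 (54.2 to 56.2) and 54.1% in replicate 2 (53.7 to 54.4). It held 38.8% of those of the right end in replicate 1 (38.2 to 39.4) and 37.3% in replicate 2 (37.1 to 37.5). The difference, left minus right, was 16.6 ± 0.29 percentage points (SD, n = 2), far beyond the spread between the libraries. It was 12.1 ± 0.40 among reads with a single best place and 5.12 ± 0.68 when only the outer 50 kb of each end were taken. Under both of these alternatives the lean of the right end to the minus strand ended: its plus share was 50.2% and 49.8% with a single best place, and 50.4% and 49.5% in the outer 50 kb. Taken window by window, the minor strand held 34.8% and 37.4% of the reads of the left end and 24.7% and 25.9% of the right end, so single windows of the right end leaned more to 1 strand.

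Strand balance changed in stretches along each end. The 5 windows from base 1 to 5000 of the left end had more minus-strand reads in both libraries, with 23.2% to 48.4% on the plus strand. The 5 windows from base 11001 to 16000 had more plus-strand reads, with 59.4% to 76.6%, and the innermost dense window, bases 16001 to 17000, turned back to 24.1% and 30.2%. In bins of 5 kb the plus share was 38.2% and 39.0% from 0 to 5 kb, 64.3% and 61.2% from 5 to 10 kb, and 62.3% and 57.2% from 10 to 15 kb. In the main run of the right end, the 8 windows from base 4228001 to 4236000 had 6.12% to 31.3% on the plus strand, and the 3 windows from base 4240001 to 4243000 had 65.6% to 75.5%. The 2 densest windows of the right end thus belong to opposite stretches, with 11.6% and 11.3% of reads on the plus strand in the inner one (bases 4228001 to 4229000) and 72.1% and 68.4% in the outer one (bases 4242001 to 4243000). The 4 windows of the run at bases 4251001 to 4255000 all leaned to the minus strand, at 6.99% to 35.3% plus.

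Over the dense windows, 8 of the left end had most reads on the plus strand in both libraries, 7 on the minus strand, and 1 differed between the libraries. In the right end these were 5, 19 and 5. The majority strand was not counted over all 606 dense windows outside the block, so whether this split is particular to the ends was not tested. Some of these windows had few reads with a single best place, such as bases 6001 to 7000 with 0% and 0.135%. Their strand is mostly that of the listed copy. No dense window of either end had under 1% of its reads on the minor strand in both libraries. The nearest was bases 4262001 to 4263000 in the right end, named here after its values were seen, with 98.9% and 99.2% on the plus strand. Its 186 and 1464 reads came from 33 and 94 members, 97.3% and 97.1% had a single best place, and 1 member of 22 nt at bases 4262376 to 4262397 held 79 and 503 of them.

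**Figure D2:**
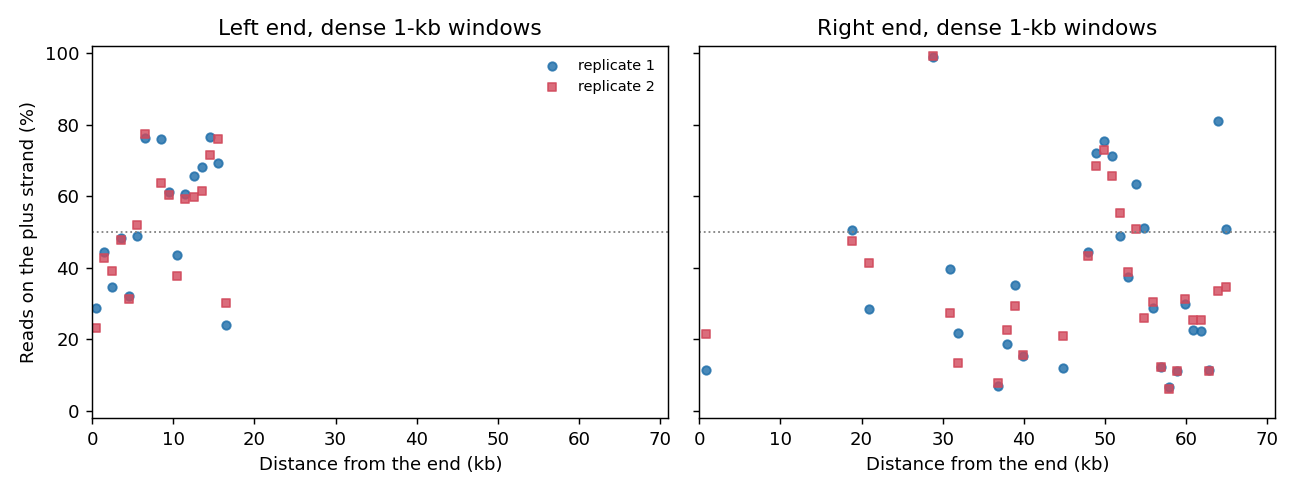
Percentage of reads on the plus strand in each dense window of 1 kb, by distance from the tip (kb), with circles for replicate 1 and squares for replicate 2. In the left end the windows lie between 23.2% and 77.5%, and in the right end between 6.12% and 99.2%, with a change of majority inside the main run.

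The span of 23 nt was the most frequent at both ends. It made up 37.6% of the reads of the left end in replicate 1 (36.7 to 38.6) and 37.1% in replicate 2 (36.8 to 37.5), and 40.9% of those of the right end in each replicate (40.3 to 41.5 and 40.7 to 41.1). In the rest of the series outside the block it made up 25.2% and 33.6%. The difference between the ends, left minus right, was −3.49 ± 0.37 percentage points (SD, n = 2). Among reads with a single best place it was −7.30 ± 0.79, and with each member counted once −0.80 ± 0.45. The lower share of the left end was thus found in both libraries under each way of counting, and its size depended on it.

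Spans of 22 and 24 nt flanked the maximum evenly. At the left end 22 nt held 22.3% and 21.2% and 24 nt held 21.8% and 22.98% of the reads. At the right end 22 nt held 21.6% and 22.4%, and 24 nt held 21.1% and 21.8%. The ends parted more at 25 nt, with 8.13% and 8.88% in the left end and 5.99% and 5.83% in the right end. At 21 nt, the lower limit of the labelled sizes, they had 10.1% and 9.75% in the left end and 10.4% and 9.08% in the right end, where the rest of the series had 23.6% and 13.7%. By strand, 23 nt held 36.6% and 35.4% of plus-strand reads and 38.9% and 39.2% of minus-strand reads in the left end. It held 42.2% and 42.5% of plus-strand reads and 40.01% and 39.9% of minus-strand reads in the right end, so the order of the strands was opposite at the ends.

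**Figure D3:**
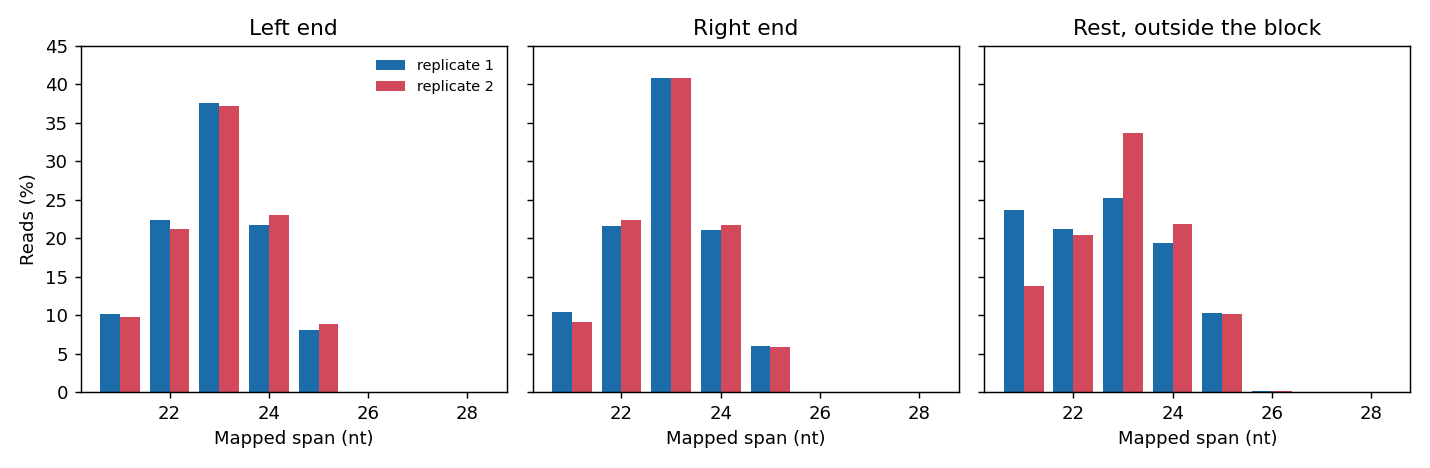
Percentage of reads at each mapped span (nt) in the left end, the right end and the rest of the series outside the block, with 1 bar per replicate. At both ends 23 nt stands above its neighbours in each library.

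The share of 23 nt varied along the left end. It was 38.4% and 38.3% in the first 5 kb, 33.7% and 34.1% from 5 to 10 kb, 38.7% and 38.3% from 10 to 15 kb, and 47.5% and 35.1% of 510 and 3892 reads from 15 to 20 kb. The mean span over the first 15 kb stayed between 22.89 and 23.01 nt. In the right end the outermost 5 kb had the lowest share of any bin with a dense window: 23 nt held 22.2% and 31.8% there, while 21 nt held 20.97% and 10.3%. In that bin 22 nt was the most frequent span in replicate 1, with 32.6%, and held 23.8% in replicate 2. A few members weighed on this: of the 1383 reads of the bin in replicate 1, 1 member of 22 nt at bases 4290037 to 4290058 held 204. Another of 22 nt, at bases 4289833 to 4289854, held 126. From 35 to 40 kb, over the run at bases 4251001 to 4255000, 23 nt reached 50.3% and 47.8%. In the 4 bins from 45 to 65 kb it lay between 37.3% and 42.3%. From 25 to 30 kb 22 nt was also the most frequent span in replicate 1, with 41.2% of 330 reads. It held 33.05% of 2581 reads in replicate 2, where 23 nt held 40.7%. Of these 330 and 2581 reads, 1 member of 22 nt at bases 4262376 to 4262397 held 79 and 503.

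The ends differed in how many reads could be placed. A mapping score above 0, read as a single best place, was found for 23.2% of the reads of the left end in replicate 1 (22.4 to 24.04) and 23.3% in replicate 2 (23.01 to 23.6). It was found for 42.6% of those of the right end in replicate 1 (42.0 to 43.2) and 43.3% in replicate 2 (43.1 to 43.6). The rest of the series had 26.7% and 28.9%. The difference, left minus right, was −19.7 ± 0.45 percentage points (SD, n = 2). Reads that can be placed were concentrated: from 45 to 50 kb in the right end they made up 82.6% and 81.9%, and in the adjoining bin from 50 to 55 kb 6.43% and 6.73%. In the left end the bin from 5 to 10 kb led with 48.5% and 45.2%, and bases 9001 to 10000 alone had 64.3% and 67.5%. For the other reads the listed position stands for one of several equal copies, which may lie outside the ends.

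Members were ranked by their mean read count, not scaled to depth, so the deeper replicate 2 weighed more. The leading member of the left end was a minus-strand place of 23 nt at bases 3000 to 3022. It had 4 reads in replicate 1 and 637 in replicate 2. The next was a minus-strand place of 24 nt at bases 8609 to 8632, with 0 reads in replicate 1 and 569 in replicate 2. By counting error alone this 0 allows up to 3 reads, a limit that does not cover reads listed at another copy. The third was a plus-strand place of 23 nt at bases 11760 to 11782, with 6 and 438 reads. They ranked 1, 2 and 3 in replicate 2, and in replicate 1 the first ranked 341 and the last 193. All reads of these 3 members aligned equally well elsewhere. In replicate 1 the window of the third was led by another plus-strand place of 23 nt, at bases 11562 to 11584, with 81 reads, and the window at bases 14001 to 15000 by one at bases 14598 to 14620, with 78. In the right end the leader, a minus-strand place of 22 nt at bases 4236342 to 4236363, had 2 reads in replicate 1 and 2314 in replicate 2, again all with several places. The deposited list gives 1 place per sequence and no bases, so where replicate 1 lists these sequences was not analysed here, and the part of multiple placement in these differences was not tested. The second, a minus-strand place of 23 nt at bases 4251676 to 4251698, had 239 and 1826 reads, all with several places too, and led the right end in replicate 1. It held 0.919% and 0.935% of the reads of the right end, against 0.00769% and 1.19% for the leader. By the mean of these shares it came before the leader.

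Members with a single best place, ranked in the same way after the first ranking was seen, kept close to the same rank in both libraries. In the left end they were a minus-strand place of 22 nt at bases 9185 to 9206, with 44 and 327 reads, a minus-strand place of 23 nt at bases 2292 to 2314, with 30 and 264, and a plus-strand place of 24 nt at bases 9744 to 9767, with 14 and 85. In the right end they were a minus-strand place of 22 nt at bases 4228104 to 4228125, with 149 and 943 reads, which also came after the 2 right-end places above in the ranking over all members, a plus-strand place of 23 nt at bases 4241797 to 4241819, with 94 and 820, and a minus-strand place of 22 nt at bases 4242707 to 4242728, with 82 and 688. These places held 0.497% to 1.94% of the reads with a single best place of the left end, and 0.740% to 1.35% of those of the right end. At the opposite-strand position that would pair with each of them leaving overhangs of 2 nt at both 3′ ends, the single-best-place reads numbered 0 in replicate 1 and at most 2 in replicate 2. Several sequences that differ in some base were listed at 571 of 5002 and 3944 of 16083 members of the left end, and at 1333 of 9154 and 6693 of 27453 members of the right end. Among the abundant places, 40 were listed at bases 4228104 to 4228125 in replicate 2, of which 1 had 861 of the 943 reads.

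No few members carried the ends. The most used 5′ end held 1.07% and 0.871% of the reads of the left end and 1.13% and 1.22% of the right end, and the 10 most used held 5.95% and 5.89% in the left end and 5.88% and 6.07% in the right end. Fewer 5′ ends than 3′ ends were needed to hold 50% of the reads. For the left end, 50% of the reads lay on 469 5′ ends against 657 3′ ends in replicate 1, and on 513 against 767 in replicate 2. For the right end these were 410 against 621 and 430 against 644. For the most used ends this order did not hold in the right end, nor for the single most used end of the left end in replicate 2. The most used 3′ end held 0.839% and 0.975% of the reads of the left end and 1.56% and 1.63% of the right end, and the 10 most used held 5.38% and 5.48% in the left end and 6.23% and 6.37% in the right end. Members seen once made up 68.0% and 49.4% in the left end and 61.9% and 48.8% in the right end, against 72.0% and 58.3% in the rest of the series.

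Opposite-strand members of both ends overlapped in the way of Dicer products more often than in neighbouring ways. Pairs of members of one span whose minus-strand start lay 2 nt to the left of the plus-strand start, and which so overhang by 2 nt at both 3′ ends, numbered 151 in the left end of replicate 1, against 86.0 ± 13.5 (SD) at the 20 other differences within 10 nt, and 1217 against 864.1 ± 61.7 in replicate 2. The right end had 267 against 167.2 ± 22.1 and 1786 against 1340.3 ± 108.1. The ratios were 1.76 and 1.41 in the left end and 1.60 and 1.33 in the right end, or 1.58 ± 0.25 and 1.46 ± 0.19 (SD, n = 2), so the ends differed by less than the libraries did. No other of the 21 differences reached this count in any end or library. At single spans from 21 to 25 nt it was the highest in 16 of 20 combinations of end, library and span, and, with ties counted against it, the second or the third in the other 4. At 23 nt in the right end of replicate 2 it was not a tie: 556 pairs stood against 568 at another difference. The rest of the series had 1.61 and 1.40.

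**Figure D4:**
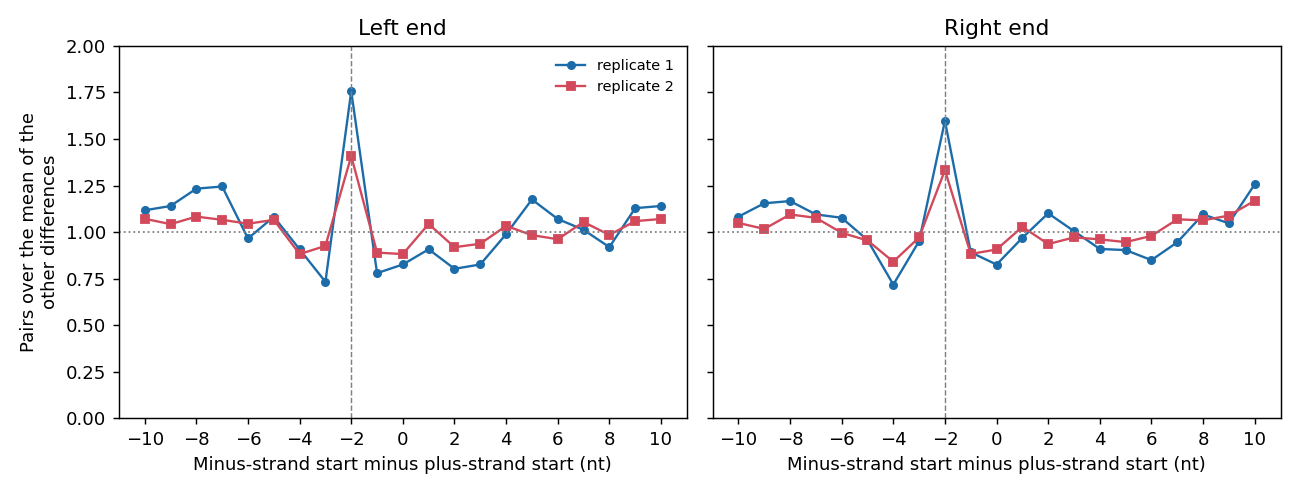
Pairs of members of one span on opposite strands, by the minus-strand start minus the plus-strand start (nt), relative to the average over the 20 neighbouring differences. The dashed line marks −2 nt, where each end and library has its highest value, between 1.33 and 1.76.

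Members also followed one another on the same strand. A 5′ end lay exactly 1 span after the 5′ end of another member 858 times in the left end of replicate 1, against 706.2 ± 46.0 (SD) at the other distances within 5 nt, a ratio of 1.21, and 5806 times against 5155.2 ± 148.4 in replicate 2, a ratio of 1.13. The right end had 1659 against 1441.7 ± 57.7 and 8851 against 7983.4 ± 243.8, ratios of 1.15 and 1.11. This distance was the most frequent of the 11 in each end and library. No such count was made for the rest of the series, so whether it is particular to the ends was not tested.

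Density differed between the libraries by a similar factor in most dense windows of the ends. The median dense window had 2.87 times the RPM in replicate 2 as in replicate 1 in the left end (log2 1.52, interquartile range 1.35 to 1.56) and 2.75 times in the right end (log2 1.46, interquartile range 1.33 to 1.62). Over all 606 dense windows outside the block the median was 2.59 (log2 1.37, interquartile range 0.34 to 1.54). Under 2 times lay 1 dense window of the left end and 2 of the right end. They were the outermost dense window of each end, bases 1 to 1000 with 1.63 times and bases 4290001 to 4291000 with 1.44 times, and bases 4227001 to 4228000 with 1.02 times. There, 1 plus-strand member of 21 nt at bases 4227903 to 4227923 held 108 of 237 reads in replicate 1, and 21 nt made up 52.7% of reads there against 5.84% in replicate 2. Of the members with a single best place in replicate 1, 78.9% in the left end and 81.2% in the right end were also listed in replicate 2. They made up 25.5% and 28.1% of the members with a single best place of replicate 2, which had more reads. Over all members, 61.0% of the left end and 64.1% of the right end of replicate 1 were listed in replicate 2, or 18.96% and 21.4% of those of replicate 2. The overlap was not counted for the rest of the series, so whether it is particular to the ends was not tested.

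**Figure D5:**
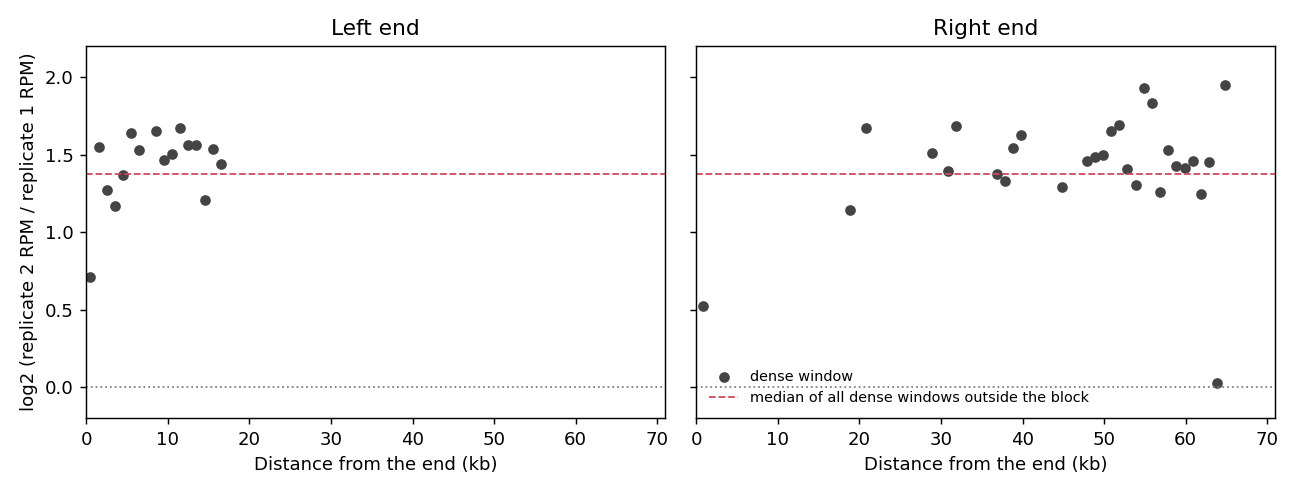
log2 ratio of RPM in replicate 2 over replicate 1 for each dense window of 1 kb, by distance from the tip (kb). The dashed line is the median over all 606 dense windows outside the block, and 3 windows of the ends lie under a log2 ratio of 1.

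The ends of supercontig 2 and of supercontig 3, taken as 70 kb on each side and without the block, were set beside those of supercontig 1. The ends of supercontig 1 had 286.7 and 778.5 RPM per kb, those of supercontig 2 had 110.5 and 302.7, and those of supercontig 3 had 71.8 and 13.5. The share of 23 nt was 39.99% and 39.9% at the ends of supercontig 1, 39.4% and 36.8% at those of supercontig 2, and 30.3% and 27.5% at those of supercontig 3. The plus strand held 43.3% and 41.9% at the ends of supercontig 1, 27.3% and 27.02% at those of supercontig 2, and 2.60% and 7.25% at those of supercontig 3. These differences were not tested. The pair ratio was 1.65 and 1.36 at the ends of supercontig 1 and 1.69 and 1.46 at those of supercontig 2, and the ends of supercontig 3 had 1 pair in each library, too few for a ratio.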

How the data were processed

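Small RNA was measured in 2 libraries of wild-type cells. Per the labels' protocols it was size-selected, ligated to adapters, amplified and sequenced on an Illumina instrument. The authors deposited, for each library, a list of distinct sequences with 1 aligned place each (start, end, strand), a name, and a score for the mapping. The number after the hyphen in the name was read as the raw count of identical reads, and the deposited mapping score of 0 to 37 as a single best place where above 0. Starts count from 0 in the deposited lists and are given here counting from 1. BWA is named in the submitters' processing notes; its settings, the build and any filters are not stated in the sources at hand, so mismatches allowed and the choice among equal places could move single positions. Reads, members, windows of 1 kb (by leftmost base) and bins of 5 kb (by distance from base 1 or from the last listed base) were counted with Python 3.11.15, pandas 2.3.3 and SciPy 1.17.1. Counting of pairs was tested on simulated places.

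Members, regions and rules were chosen with earlier results of these data known. In each end, the rule for named items took the 3 densest windows by mean RPM and the 3 most abundant members by mean reads. It also took the outermost and innermost dense windows and the longest stretch without a member. Alternatives were reads with a single best place, members counted once, ends of 50 kb, scaling with the block kept in, other neighbours or span 23 for pairs, and each library alone.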

Additional observations from a re-analysis of the deposited data

Results flagged for a closer look

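Reads under 21 nt lie outside the labelled sizes and were left out of the counts above. They were listed at the ends in both libraries. Replicate 1 had 5 in the left end and 6 in the right end, and replicate 2 had 34 in the left end and 41 in the right end. They made up 0.0512% and 0.0463% of the reads of the left end and 0.0231% and 0.0210% of those of the right end, against 0.183% and 0.192% of all reads of replicates 1 and 2. No control library was at hand.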

How the results depend on the processing

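No value here has a test. Unless a single library is named, shares and ratios are means of 2 libraries, and dense windows are those that reached the limit in each library. No paired analysis was possible because there is only 1 group. With reads of a single best place the left to right ratio was 0.203, the plus strand held 62.1% in the left end and 49.998% in the right end, 23 nt held 35.3% and 42.6%, and 0.796% of the right end's reads lay within 20 kb of the tip. With each member counted once the ratio was 0.566, the plus strand held 56.6% and 43.4%, 23 nt held 29.7% and 30.5%, and 46 windows of the right end were dense. With ends of 50 kb, which drops most of the main run of the right end, the ratio was 0.766. The right end then had 49.9% on the plus strand, 42.0% at 23 nt, 10.5% of its reads within 20 kb and 14 dense windows. The left end kept 16 dense windows, so the order of the ends by dense windows was reversed. The pair ratio of the right end was 1.28 at 23 nt alone. The cause of the other shifts was not tested. No alternative turned the left to right ratio of reads. With 1 library alone the share of reads in both ends ranged from 4.02% to 10.9%, dense windows from 16 to 17 in the left end and from 30 to 40 in the right end, and the pair ratio from 1.41 to 1.76 and from 1.33 to 1.60. With the block kept in there were 11 and 21 dense windows, and both ends held 4.43% of reads, from 1.16% in replicate 1 to 7.70% in replicate 2. Replicate 1, with 2266 single-place reads in the left end, limits what can be said of single members.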

Other observations

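A pair of windows of 1 kb reached 100 RPM in replicate 1 alone, the reverse of the direction in the dense windows of the ends. Windows of this kind were not counted over the series, so whether they are particular to the ends was not tested. Bases 69001 to 70000 in the left end had 130 reads (146.2 RPM) in replicate 1 and 88 (35.8 RPM) in replicate 2, with 0% and 2.27% plus-strand reads. Bases 4289001 to 4290000 in the right end had 186 reads (209.2 RPM) and 130 (52.9 RPM), with 95.7% and 84.6% plus-strand reads, and 1 member of 22 nt at bases 4289833 to 4289854 held 126 of the 186 reads of replicate 1. In these windows 23 nt made up 13.8% and 19.3%, and 8.06% and 16.2%, below its share in the ends as a whole. None of their reads had a single best place. The adjoining dense window, bases 4290001 to 4291000, had 24.3% and 10.4% of its reads at 21 nt and 11.5% and 21.5% on the plus strand.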
